A study of Mus musculus with 36 samples.

Results

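Hearts taken 2 days after a 2-week pulse of active Akt1 had ended were compared with hearts in which the transgene had not yet been induced, to see what remained of the induced state and what was new. The groups compared hold 16 arrays of 8 hearts, of 36 arrays and 18 hearts in all. Of these 8 hearts, 4 had 2 weeks of induction followed by 2 days of repression, taken at 14 weeks and 2 days of age. The 4 hearts before induction were taken at 12 weeks. All 8 mice were labelled male and of the strain Tet-myrAkt1/?MHC-tTA, as the labels print it, so the hearts before induction carried both transgenes too. Each heart was read on a pair of Affymetrix chips, named 430A and 430B. Values from 4 further hearts of the same strain, taken at the end of 2 weeks of induction at 14 weeks of age, are given beside the comparison to show where a gene stood before repression. The spread behind each standard error and p-value of the main fit was estimated from all 18 hearts. These include older mice, aged 18 weeks, whose transgene had been on for 6 weeks. They also include mice aged 20 weeks in which the transgene, on for 6 weeks, had then been off for 2 weeks. The repressed hearts compared here were older than the hearts before induction, and age and treatment cannot be told apart.

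Akt1 is a kinase that insulin and growth factor receptors switch on through phosphoinositide 3-kinase. It promotes protein synthesis and glucose storage, and it keeps FoxO transcription factors out of the nucleus, which lowers their targets in protein breakdown and autophagy. The myristoylated form is held at the membrane and is active without a receptor signal. The tTA transactivator is driven by the myosin heavy chain promoter, which is active in cardiac muscle cells, so other cell types of the heart were not meant to carry the active kinase. Heart tissue was measured, and fewer cells of a type and less RNA per cell cannot be told apart.

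Of the 4 hearts before induction, hearts 3 and 4 went against their label. Xist, the transcript of the inactive X chromosome of females, had signals of 2518 and 2170 in them, against 9.60 and 32.2 in hearts 1 and 2 and at most 92.8 in the repressed hearts. Eif2s3y, a gene of the Y chromosome, read 372 to 485 in the repressed hearts and 430 and 483 in hearts 1 and 2. In hearts 3 and 4 it read 2.80 and 3.60. Counts for most gene lists, and values for many named genes, are therefore also given without these 2 hearts, a fit that also has fewer samples. RNA quality moved with the groups as well. The ratio of the 3′ to the 5′ probe set of Actb was 1.09 ± 0.0608 in repressed hearts and 1.38 ± 0.165 before induction (SD, n = 4 each; two-sided exact permutation test p = 0.0286, the smallest that 4 against 4 allows). The 18S ribosomal RNA signal, read by its 3′ probe set, was 327 ± 92.1 in repressed hearts and 454 ± 114 before induction (SD, n = 4 each; exact p = 0.143). The part of either in the results below was not tested beyond a fit with the Actb ratio as a covariate. The median signal of an array lay between 188 and 232 for chip 430A, and between 64.2 and 78.9 for chip 430B.

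Akt1 had come down most of the way after repression. The Akt1 probe set that was raised under induction had signals of 745, 696, 706 and 725 in the repressed hearts, against 514, 517, 508 and 652 before induction. The 4 repressed hearts all lay above the 4 others, yet the log2 difference of 0.37 ± 0.16 (SE) did not pass the test (limma, adjusted p = 0.196), and its 95% interval ran from 0.03 to 0.70. At the end of induction the same probe set had read 1981 to 3481, a log2 difference of 2.27 from the hearts before induction. The other Akt1 probe sets read 0.11 and 0.45 log2 units below the level before induction, neither past the test (log2 differences of -0.11 and -0.45).

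Of 33084 probe sets tested on both chips, 585 were higher (1.77%) and 484 were lower (1.46%) in repressed hearts than before induction, at an adjusted p under 0.05 from limma. At least 2-fold changes made up 197 of the higher and 71 of the lower calls. The 2 groups of hearts did not overlap for 538 of the 585 higher and 456 of the 484 lower calls. With each of 14650 genes read by 1 probe set, 293 genes were higher (2.00%) and 265 lower (1.81%). Signals are the deposited linear MAS5 values, and log2 changes were taken after adding 10% of each array's trimmed mean, which understates the change of dim genes. The labels describe the hearts as individual mice, and p-values reflect only the spread within the 5 groups of all 18 hearts. Among these, heart 3 of the mice induced for 6 weeks had an Actb ratio of 3.71 on chip 430A. With only the 2 compared groups in the fit, 976 probe sets were called higher and 722 lower. The 2 shares of genes are the background against which the counts of each gene group stand. Of the 1069 probe sets called, 233 were also called in the same direction at the end of induction and were not called between the 2 later stages; they are termed remaining, and 163 of them were higher. A further 476 were called against both earlier stages in the same direction and were not called at the end of induction; they are termed new, and 220 of them were higher. The other 360 met neither definition. All comparisons share hearts, and a gene that misses a threshold at 1 stage is not shown to be at its starting level there. Without hearts 3 and 4 before induction 509 probe sets were called, 291 higher and 218 lower. In that fit 149 of the 14650 genes were higher and 124 lower, which is the background for list counts without these hearts. Among the same genes median scaling called 243 higher and 161 lower, quantile normalization 335 and 337, and the Actb ratio as covariate 267 and 226. Leaving out heart 2 or 3 before induction or heart 1, 2 or 4 of the repressed group, 1 at a time, left 601, 526, 570, 502 and 531 calls. Scaling each array to a common median in place of the trimmed mean gave 545 higher and 290 lower, and moved the median change on chip 430B to 0.06, against -0.06 as deposited.

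**Figure D1:**
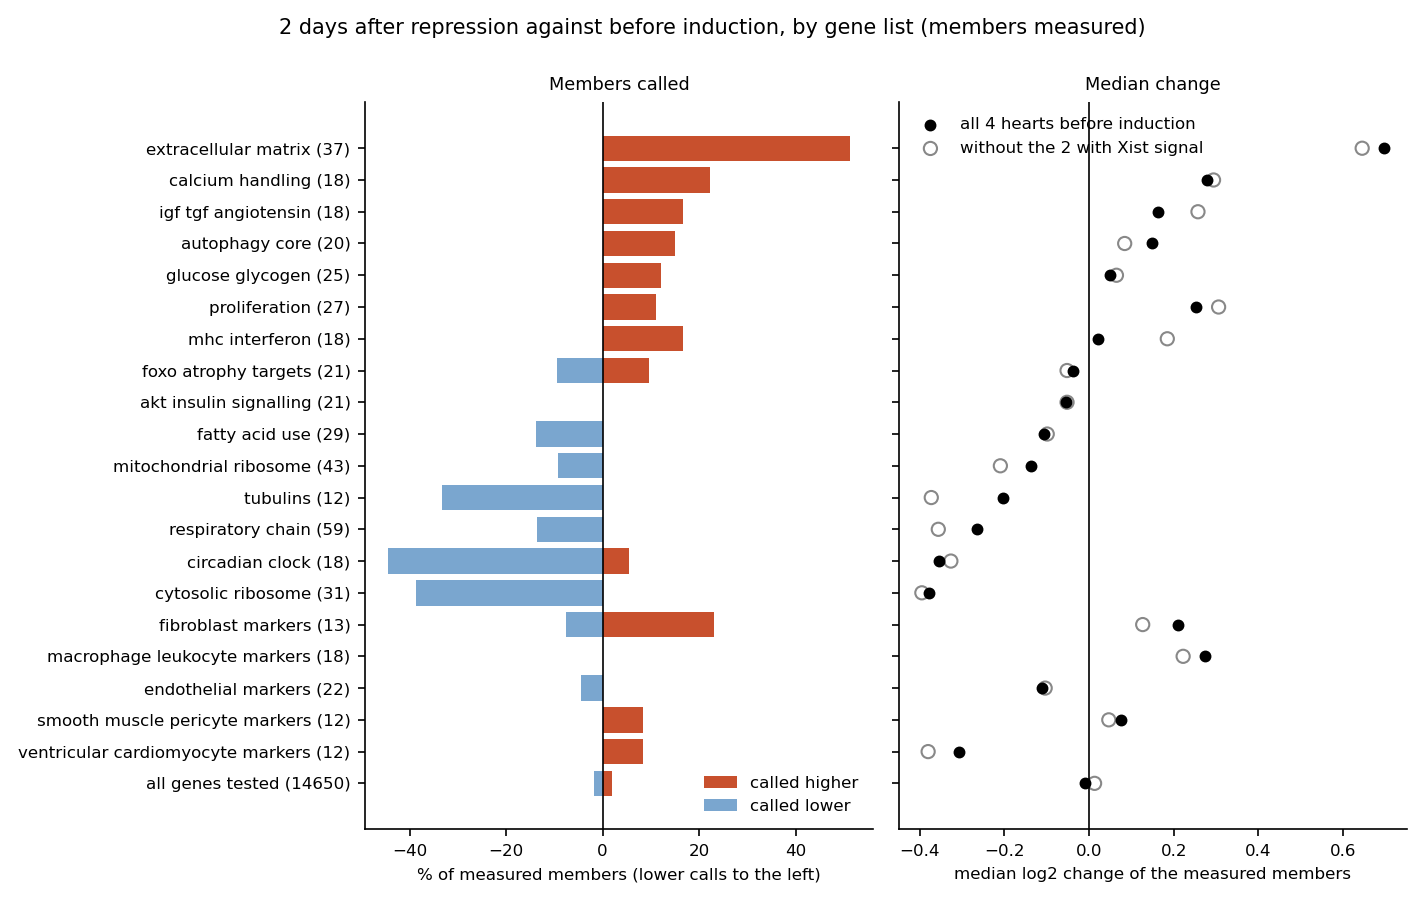
Share of the measured members of each gene list called higher or lower in repressed hearts than before induction (left, % of members, lower calls drawn to the left of 0) and median log2 change of the members (right). The matrix list has the largest share, with 19 of 37 members called higher, and the cytosolic ribosomal and clock lists have the lowest medians (-0.38 and -0.36). Open circles give the median without the 2 hearts with Xist signal.

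The matrix response of the induced heart was still present 2 days after repression. Of 37 measured genes of collagens, matrix proteins and their processing enzymes, 19 rose and none fell, 18 were not called, and the median log2 change was 0.70, against -0.01 over all genes. Without hearts 3 and 4 before induction 13 of the 37 were called higher and the median was 0.65. At the end of induction 22 of the 37 had been higher and 2 lower than before induction, where 3.69% of all genes were called higher and 2.90% lower, and 14 of the 19 met the definition of remaining. The summed signal of the list was 91865 to 120070 in repressed hearts and 61786 to 78747 before induction, with no overlap.

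Thbs4, a secreted thrombospondin of the injured heart, had signals of 832, 542, 643 and 447 in repressed hearts, against 189, 34.9, 27.3 and 30.3 before induction. Its log2 rise of 2.62 ± 0.42 (adjusted p = 0.00168; 2.19 without the 2 hearts) was the largest on chip 430A among genes whose hearts did not overlap. Periostin (Postn), a matricellular protein made by activated fibroblasts, read 4572, 3664, 4015 and 3385 in repressed hearts and 794, 662, 423 and 900 before induction, a log2 rise of 2.45 ± 0.21 (adjusted p = 2.11e-06). All 4 repressed hearts were several-fold above every heart before induction. Postn had been higher still under induction, at 4801 to 8089, and with versican (Vcan) it was 1 of 2 members called lower than in the induced hearts (log2 differences of -0.66 and -0.63).

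The fibrillar collagens rose together. Col5a2, a chain of type V collagen, which helps to start the assembly of collagen fibrils, read 1963, 1746, 2264 and 1395 in repressed hearts and 811, 622, 511 and 626 before induction (log2 1.45 ± 0.19, adjusted p = 0.000308). The change of its partner chain Col5a1 was 2.06 ± 0.32 by a dim probe set and 0.62 and 0.49 by brighter ones, all called. Col1a1, Col1a2 and Col3a1, the chains of the main interstitial collagens, rose by 1.06, 1.14 and 0.70 on the log2 scale. Without the 2 hearts Col1a1 changed by 1.08 and missed the threshold (adjusted p = 0.0516), as did the brightest Col5a1 probe set (0.61, adjusted p = 0.105). None of these 5 genes was called between the repressed and the induced hearts. Lox, the enzyme that cross-links collagen and elastin, read 614, 646, 679 and 445 in repressed hearts and 143, 357, 265 and 214 before induction (log2 1.17 ± 0.19, adjusted p = 0.00196). Elastin (Eln) rose by 1.11 and fibronectin (Fn1) by 1.09.

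Timp1, an inhibitor of matrix metalloproteinases, read 942, 460, 736 and 252 in repressed hearts against 134, 22.7, 112 and 223 before induction, a log2 rise of 1.92 ± 0.39 (adjusted p = 0.00776). Timp3, another inhibitor of these enzymes that was not on the list, fell by 1.21 ± 0.29 on the same scale by 1 probe set. By that probe set the 2 inhibitors moved in opposite directions, as they had under induction (1.68 and -1.37). It was not called without the 2 hearts, with a change of -0.96 (adjusted p = 0.143). Another Timp3 probe set, on which the groups overlapped, changed by -0.29 after repression and -0.76 under induction, neither called (adjusted p = 0.543 and 0.0607). On chip 430B, the list member Cilp, a matrix protein of cartilage and of the remodelling heart, read 1406, 1261, 1518 and 1021 in repressed hearts and 460, 190, 210 and 442 before induction (log2 2.05 ± 0.26, adjusted p = 0.000586). Off the list, Cthrc1, a secreted protein of activated fibroblasts, rose by 2.41 ± 0.37 on a low starting signal (8.06 to 53.9 before induction). Col4a4, a chain of type IV collagen, rose by 2.20 ± 0.43, which fell to 1.57 and lost its call without the 2 hearts (adjusted p = 0.158). Another Col4a4 probe set, on chip 430A, changed by 0.45 and was not called (adjusted p = 0.161).

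Markers of fibroblasts as a cell type moved less than the matrix genes. Of 13 such markers, 3 rose (Cd248, Mfap5 and Fstl1), 1 fell (Gsn), and the median change was 0.21. Without the 2 hearts 2 were higher and none lower, Fstl1 and Gsn having lost their calls. Another Fstl1 probe set, not counted here, rose by 1.07 with all hearts (adjusted p = 0.000447). The summed signal of the 13 markers was 35529 to 41753 in repressed hearts and 39769 to 48907 before induction. Pdgfra and Tcf21, which define resident fibroblasts, changed by 0.05 and -0.09 and none of the 13 was at 0. Whether more fibroblasts or more matrix RNA per fibroblast lies behind the matrix rise was not tested.

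**Figure D2:**
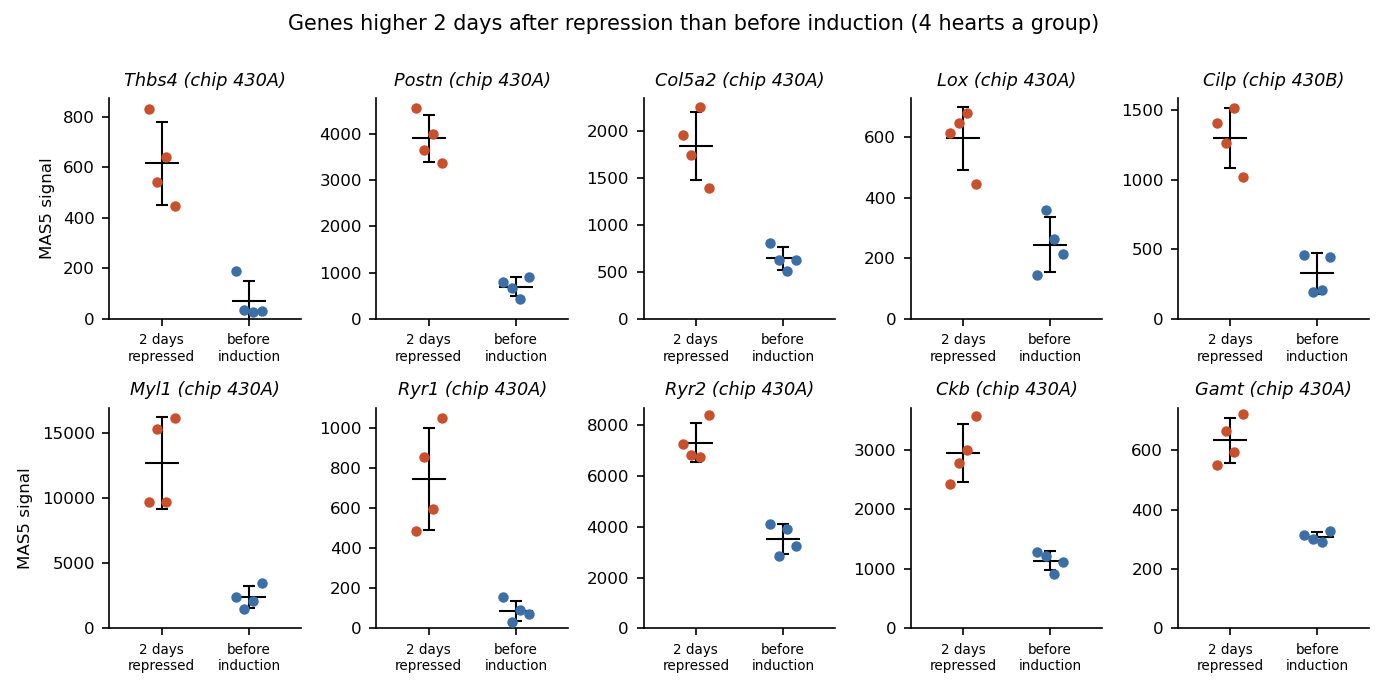
MAS5 signal of each heart for 10 genes higher in repressed hearts (orange, left in each panel) than before induction (blue, right); bars give the mean and SD of 4 hearts and each axis starts at 0. In all 10 panels the 4 repressed hearts lie above the 4 hearts before induction.

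Myl1, the fast skeletal essential light chain of myosin, read 9705, 15327, 9687 and 16163 in repressed hearts and 2435, 1477, 2110 and 3491 before induction, a log2 rise of 2.42 ± 0.21 (adjusted p = 2.11e-06). Its rise at the end of induction had the same size (2.42), and the 2 later stages differed by 0.00. Ryr1, the calcium release channel of skeletal muscle, read 487, 858, 598 and 1052 in repressed hearts and 156, 33.3, 89.9 and 69.8 before induction (log2 2.56 ± 0.36, adjusted p = 0.000563). A dimmer Ryr1 probe set on chip 430B changed by 1.17 and was not called (adjusted p = 0.252). The cardiac channel Ryr2 rose too, by 1.05 ± 0.13 on its brightest probe set, where all repressed hearts (6767 to 8408) lay above all hearts before induction (2837 to 4092). That probe set was already raised at the end of induction (log2 0.90). A dimmer probe set of Ryr2 showed another course, with 1512 to 2231 in repressed hearts, 229 to 377 in induced hearts and 169 to 543 before induction.

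Of 18 measured calcium handling genes, 4 rose and none fell (Ryr1, Ryr2, Casq1 and Slc8a1), and 2 were called higher without the 2 hearts. Casq1, the calcium store protein of fast skeletal muscle, read 2301, 2420, 3108 and 2708 in repressed hearts and 3075, 1346, 576 and 586 before induction, where hearts 1 and 2 are the higher ones. Its log2 rise of 1.22 shrank to 0.35 without hearts 3 and 4 (adjusted p = 0.0431 with them and 0.484 without). Slc8a1, the sodium-calcium exchanger, rose by 1.01 on the brightest of its probe sets on chip 430A, whereas its other probe sets changed by -0.02 and -0.10. Slc8a1, without the 2 hearts, changed by 1.14 and missed the threshold (adjusted p = 0.0572).

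Of 10 measured genes of creatine and adenylate kinase metabolism, 2 rose and none fell. Ckb, the brain-type creatine kinase, read 2420, 2781, 2999 and 3568 in repressed hearts and 1288, 1216, 918 and 1113 before induction (log2 1.33 ± 0.15, adjusted p = 6.47e-05). Gamt, the last enzyme of creatine synthesis, read 551 to 721 in repressed hearts and 291 to 328 before induction (log2 0.92 ± 0.12, adjusted p = 0.000428). Both groups of hearts were well apart for each gene, and neither gene was called between the repressed and the induced hearts.

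Fasn, the enzyme that makes long-chain fatty acids, belongs to the same class. Its signals were 1030, 1119, 3628 and 872 in repressed hearts and 230, 251, 364 and 566 before induction. The log2 rise was 1.91 ± 0.41 (adjusted p = 0.0107), with repressed heart 3 far above the other three. That heart also had the highest signals of Adipoq, the fat cell hormone, and Ucp1, the brown fat uncoupling protein (1511 and 2370). The 3 measured adipocyte markers summed to 287 to 4297 in repressed hearts and 199 to 1142 before induction, with none called, and their part in the Fasn rise was not tested. Fasn kept its call when repressed heart 3 was left out.

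Other genes had stayed low. Doc2g, a calcium-binding protein of the Doc2 family, read 1305, 770, 1264 and 670 in repressed hearts and 3698, 2724, 2231 and 3165 before induction, a log2 fall of 1.54 ± 0.22 (adjusted p = 0.000496). It had been lower still under induction, at 280 to 327, and so was part of the way back. Gnb3, a G protein beta subunit, followed the same course, with 180 to 288 in repressed hearts, 91.8 to 225 in induced hearts and 481 to 1153 before induction. Cyp26b1, which breaks down retinoic acid, read 71.5, 29.4, 17.8 and 97.0 in repressed hearts and 418, 202, 268 and 492 before induction on chip 430B (log2 -2.54 ± 0.38, adjusted p = 0.00142). Pim3, a survival kinase, and Bex1, a small adaptor protein first known from brain, fell by 1.35 and 1.23 on the log2 scale and were not called between the 2 later stages. Idh2, the mitochondrial isocitrate dehydrogenase, was the 1 member of 18 tricarboxylic acid cycle genes that fell, by 0.59, and was not called without the 2 hearts (-0.67, adjusted p = 0.0509).

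Circadian clock genes were mostly lower among those called. In the mammalian clock, Arntl (BMAL1) and Clock switch on the Per and Cry repressors and the output regulators Dbp, Tef and Hlf, and Arntl is at its lowest when these are at their highest. Of 18 measured clock genes, 8 fell, 1 rose, and the median log2 change was -0.36. Those that fell were Dbp, Ciart, Per1, Per2, Per3, Hlf, Tef and Nr1d2, and the 1 that rose was Arntl. With hearts 3 and 4 left out, 4 were lower and 1 higher, and Per2, Per3 (adjusted p = 0.0588), Tef (-0.65) and Nr1d2 (-0.60, adjusted p = 0.0972) were not called. At the end of induction 8 of the 18 had been lower and none higher than before induction.

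Dbp, which activates genes through D-box elements, read 795, 493, 387 and 547 in repressed hearts and 3049, 3065, 3027 and 2446 before induction, a log2 fall of 2.32 ± 0.34 (adjusted p = 0.000739). A second probe set for Dbp fell by 1.74. Ciart, a repressor of the clock, read 141, 45.2, 74.5 and 72.5 in repressed hearts and 381, 455, 334 and 383 before induction (log2 -2.15 ± 0.28, adjusted p = 0.000586). Hlf, a relative of Dbp, fell by 1.19 ± 0.21 and Tef, of the same factor family, by 0.80. Per1 read 404, 510, 324 and 269 in repressed hearts and 827, 921, 838 and 880 before induction (log2 -1.13 ± 0.21, adjusted p = 0.00441). For each of these genes the 2 groups of hearts did not overlap, which was also so for 456 of all 484 lower calls. Per2 overlapped, and its fall of 0.84 shrank to 0.44 without the 2 hearts (adjusted p = 0.387).

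Arntl moved the other way. It read 287, 344, 370 and 321 in repressed hearts, 126 to 196 in induced hearts and 125, 190, 39.8 and 73.9 before induction, a log2 rise of 1.37 ± 0.23 (adjusted p = 0.00259; 0.89 without the 2 hearts, adjusted p = 0.0368). A second Arntl probe set on chip 430B changed by 0.02. At the end of induction Dbp had differed by -1.02 on this probe set, short of the threshold (adjusted p = 0.0718), so it counts as new here. Its second probe set had been called lower at that stage (-1.17, adjusted p = 0.00102), so the term new does not hold for the gene as a whole. The labels give no time of day at which hearts were taken, and the part of collection time in these changes was not tested. Nr1d1, Rora and Cry2, which had been lower under induction, changed by -0.05, -0.04 and -0.53 from the level before induction, none past the test.

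Because 8 clock genes fell while Arntl rose, the promoters of the measured clock genes were searched for the elements through which the clock acts. The windows run from 250 bases before to 50 bases after each start site listed by RefSeq (GRCm38.p6), and 15 of the 18 genes had an entry. Some genes have several windows, and a gene was counted when any of its windows held a match. An E-box (CACGTG), the site of Arntl and Clock, lay in 3 of the 8 called genes with a window, in 1 of the 7 others and in 8.09% of all 27025 genes (7.15% of 32851 windows). A D-box (TTATGTAA, both strands) lay in 1 of the 8 and none of the 7, and in 1.11% of all genes (0.938% of windows). The core of the element bound by Rora and Nr1d1 (TAGGTCA, both strands) lay in 1 of each, and in 2.97% of all genes (2.61% of windows). The 4 windows below are of called genes with a match of each kind, each 5′ to 3′ on the strand of its gene, with matches in capitals: Ciart at chr3:95882179-95882478 on the minus strand has 3 E-boxes, Per3 at chr4:151044616-151044915 on the minus strand 2 D-boxes, Per1 at chr11:69098699-69098998 on the plus strand 1 E-box, and Arntl at chr7:113207261-113207560 on the plus strand 1 copy of the Rora and Nr1d1 core, which none of the other 3 windows holds.
Ciart: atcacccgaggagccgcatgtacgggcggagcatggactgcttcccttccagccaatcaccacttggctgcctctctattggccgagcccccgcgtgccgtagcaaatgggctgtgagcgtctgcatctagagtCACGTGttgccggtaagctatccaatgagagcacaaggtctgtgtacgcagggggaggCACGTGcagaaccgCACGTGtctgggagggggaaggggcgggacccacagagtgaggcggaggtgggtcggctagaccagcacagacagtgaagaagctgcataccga
Per3: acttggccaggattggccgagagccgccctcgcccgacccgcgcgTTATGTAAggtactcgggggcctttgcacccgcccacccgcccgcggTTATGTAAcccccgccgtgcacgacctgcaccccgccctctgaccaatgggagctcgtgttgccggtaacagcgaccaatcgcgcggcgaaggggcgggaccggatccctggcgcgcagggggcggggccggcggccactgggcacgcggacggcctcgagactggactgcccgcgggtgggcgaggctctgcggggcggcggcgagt
Per1: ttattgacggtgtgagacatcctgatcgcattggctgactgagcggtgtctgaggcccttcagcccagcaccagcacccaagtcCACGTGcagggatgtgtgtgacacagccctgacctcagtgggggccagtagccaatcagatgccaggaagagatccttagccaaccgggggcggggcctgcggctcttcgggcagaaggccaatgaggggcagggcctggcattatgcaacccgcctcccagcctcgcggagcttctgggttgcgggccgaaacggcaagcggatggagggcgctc
Arntl: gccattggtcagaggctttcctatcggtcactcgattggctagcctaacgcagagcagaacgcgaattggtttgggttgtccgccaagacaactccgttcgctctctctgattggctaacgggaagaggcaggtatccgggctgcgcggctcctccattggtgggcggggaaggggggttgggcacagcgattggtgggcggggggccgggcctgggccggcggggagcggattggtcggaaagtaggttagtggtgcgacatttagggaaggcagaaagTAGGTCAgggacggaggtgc
A match is a run of letters and does not show that a factor was bound in these hearts.

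**Figure D3:**
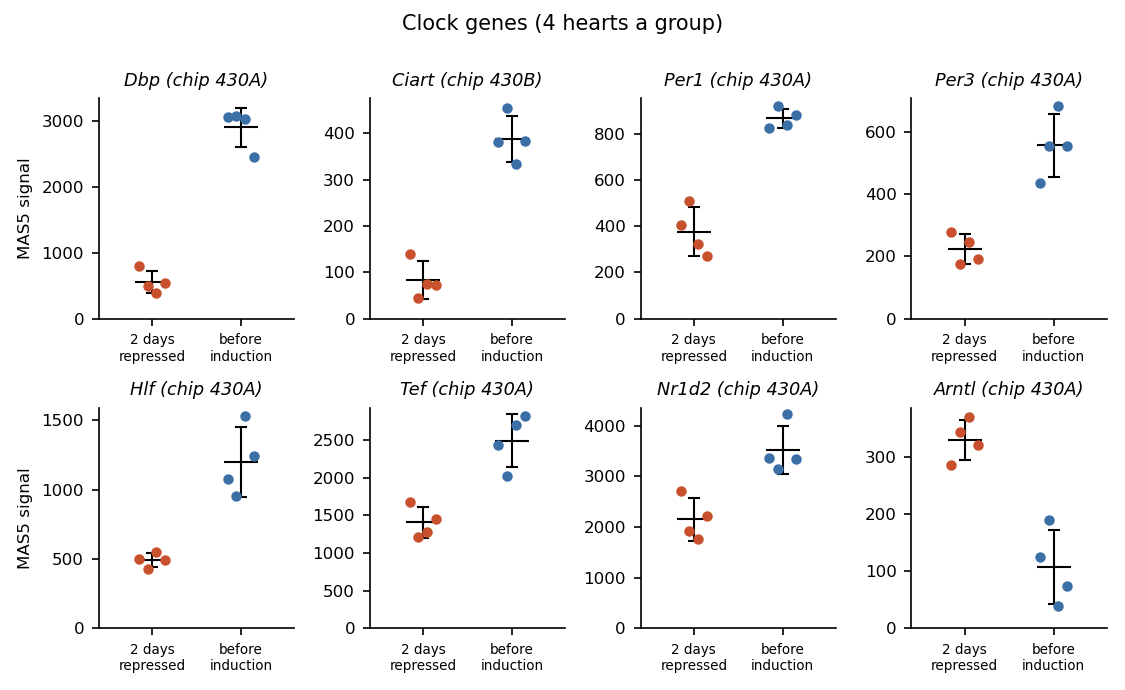
MAS5 signal of each heart for 8 clock genes in repressed hearts (orange, left in each panel) and before induction (blue, right); bars give the mean and SD of 4 hearts and each axis starts at 0. The first 7 genes are lower in every repressed heart than in any heart before induction, and Arntl is higher in every repressed heart.

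Some genes of the tubulin, iron, ribosome and respiratory chain lists fell below the level before induction without having been low under induction. Of 12 measured tubulins and tubulin cofactors, 4 fell (Tuba4a, Tubb4b, Tuba8 and Tubg1) and none rose. At the end of induction 7 of the 12 had been higher than before induction. Tuba4a, an alpha tubulin of striated muscle and nerve, read 2162, 2045, 2329 and 1811 in repressed hearts, 8884 to 18224 in induced hearts and 11632, 10011, 9207 and 9814 before induction. Its log2 fall was 2.26 ± 0.17 (adjusted p = 2.57e-07), and a brighter probe set fell by 1.84. Tubb4b, a beta tubulin, read 1510, 1483, 1535 and 1178 in repressed hearts and 3778, 3873, 3754 and 3519 before induction (log2 -1.36 ± 0.15, adjusted p = 6.47e-05) after having been raised by 0.67 under induction. That fall was seen by the brightest of 5 Tubb4b probe sets only, the others changing by 0.08, 0.88, -0.30 and -0.14 without a call. Tubg1, the gamma tubulin that seeds microtubules, had been raised by 0.64 and then lay 0.68 below. Of the 12, 3 were called lower without the 2 hearts, and Tubg1 was not (adjusted p = 0.0586). In the comparison with the induced hearts, where 5.23% of all genes were called higher and 5.36% lower, 9 of the 12 were lower. The other 8 measured members of the list were not called against the hearts before induction.

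Of the 15 genes of iron handling, 3 were called in opposite directions at the 2 later stages. The transferrin receptor Tfrc, through which cells take up iron, read 453, 356, 483 and 338 in repressed hearts, 2394 to 3360 in induced hearts and 1511, 872, 993 and 752 before induction. It had been raised by 1.44 log2 units under induction and lay 1.21 ± 0.18 below the starting level 2 days after repression (log2 -1.21, adjusted p = 0.000825). A dimmer Tfrc probe set changed by 0.17 and was not called. Alas1, the first enzyme of haem synthesis, had been raised by 0.98 and then lay below by 0.49 (log2 -0.49). Fech, the last enzyme of the same pathway, went the other way, with changes of -0.33 under induction and 0.38 after repression. Of the 15 genes, 2 rose and 2 fell. Without the 2 hearts none was higher and 1, Tfrc, was lower, while Alas1 changed by -0.50 (adjusted p = 0.079) and Fech by 0.36 (adjusted p = 0.139).

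Cytosolic ribosomal protein genes were lower. Of 31 measured, 12 fell, none rose, 30 had a change below 0 and the median was -0.38. None had been called in either direction at the end of induction, and 8 of the 12 met the definition of new. Rpl27 read 4558, 6120, 5397 and 4264 in repressed hearts and 8644, 8752, 7938 and 8390 before induction (log2 -0.74 ± 0.11, adjusted p = 0.000861), and Rpl8 read 3287 to 3905 in repressed hearts and 5347 to 6510 before induction (log2 -0.69 ± 0.09, adjusted p = 0.000479). The groups did not overlap for either. With the Actb ratio as a covariate 7 of the 31 were called lower, and without the 2 hearts 6 were. Many ribosomal protein genes have near-identical pseudogene copies, and the probe sets may read them together.

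Nuclear genes of the respiratory chain showed smaller falls. Of 59 measured, 8 fell, none rose, and the median was -0.26. Ndufb10, a subunit of complex I, read 4534, 5130, 5181 and 4739 in repressed hearts and 9004, 8839, 8854 and 8605 before induction (log2 -0.85 ± 0.14, adjusted p = 0.00171), while the induced hearts had read 7172 to 11449. Cox8b, the heart and muscle form of a complex IV subunit, fell by 0.64. Of 43 mitochondrial ribosomal proteins, 4 fell and none rose, and all 4 met the definition of new. Without the 2 hearts 5 of 59 and 1 of 43 were called lower and none higher. Scaling each array to a common median left 4 of 59, 2 of 43 and 6 of the 31 cytosolic ribosomal proteins lower and none higher. Over all 14650 genes, 265 were called lower in the main fit, 124 without the 2 hearts, 161 with median scaling and 337 with quantile normalization. Quantile normalization gave 3 of 59 respiratory chain genes higher and 5 lower with a median of -0.06, so a shift of that list depends on the scaling; it left 9 of 31 cytosolic ribosomal proteins lower with a median of -0.26. The summed signal of other abundant muscle genes was lower as well: the 24 sarcomere genes summed to 240920 to 290840 in repressed hearts and 292610 to 387970 before induction. Their median was -0.20, but 10 of the 24 had a change above 0, and 1 was called higher and 1 lower. After quantile normalization their median was 0.02. The part of the sarcomere genes in these falls was not tested.

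Among genes of fat use, Plin5, the lipid droplet coat protein of oxidative tissues, read 430, 493, 685.9 and 369 in repressed hearts, 1392 to 1779 in induced hearts and 1202, 1183, 1152 and 1236 before induction (log2 -1.22 ± 0.18, adjusted p = 0.000603). The other members of 29 fatty acid genes that fell were Acot2 (by 0.70), Mlycd (by 0.51) and Cpt1a, the entry enzyme of mitochondrial fatty acid oxidation (by 0.58), and none rose. Without the 2 hearts 1 of the 29, Plin5, was called lower, and Acot2, Mlycd and Cpt1a were not (adjusted p = 0.160, 0.104 and 0.187), and median scaling left 2 lower. A second Plin5 probe set, on chip 430B, fell by 1.41. Slc25a34, a mitochondrial carrier, fell by 1.23 on chip 430B.

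Of 25 genes of glucose use, 3 rose and none fell, and 2 of the 3 act in glycogen storage. Ppp1r3c, which targets a phosphatase to glycogen and promotes its storage, read 6481, 6222, 6240 and 7501 in repressed hearts, 2491 to 3208 in induced hearts and 4752, 3168, 3055 and 2870 before induction (log2 0.95 ± 0.19, adjusted p = 0.00688; 0.76 and not called without the 2 hearts). Gys1, the muscle glycogen synthase, rose by 0.79 and Pkm, the muscle pyruvate kinase, by 0.37. Gys1 was the 1 of the 25 called higher without the 2 hearts. Pfkfb2, the heart enzyme that makes the activator of phosphofructokinase and is itself a known Akt substrate, read 334, 323, 254 and 539 in repressed hearts, 23.7 to 58.0 in induced hearts and 79.0, 71.1, 75.9 and 42.8 before induction. Its log2 rise of 1.78 ± 0.32 (adjusted p = 0.00354) was matched in direction by a brighter probe set on chip 430B, which rose by 0.90, while 2 further probe sets changed by 0.96 and 0.18 without a call.

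**Figure D4:**
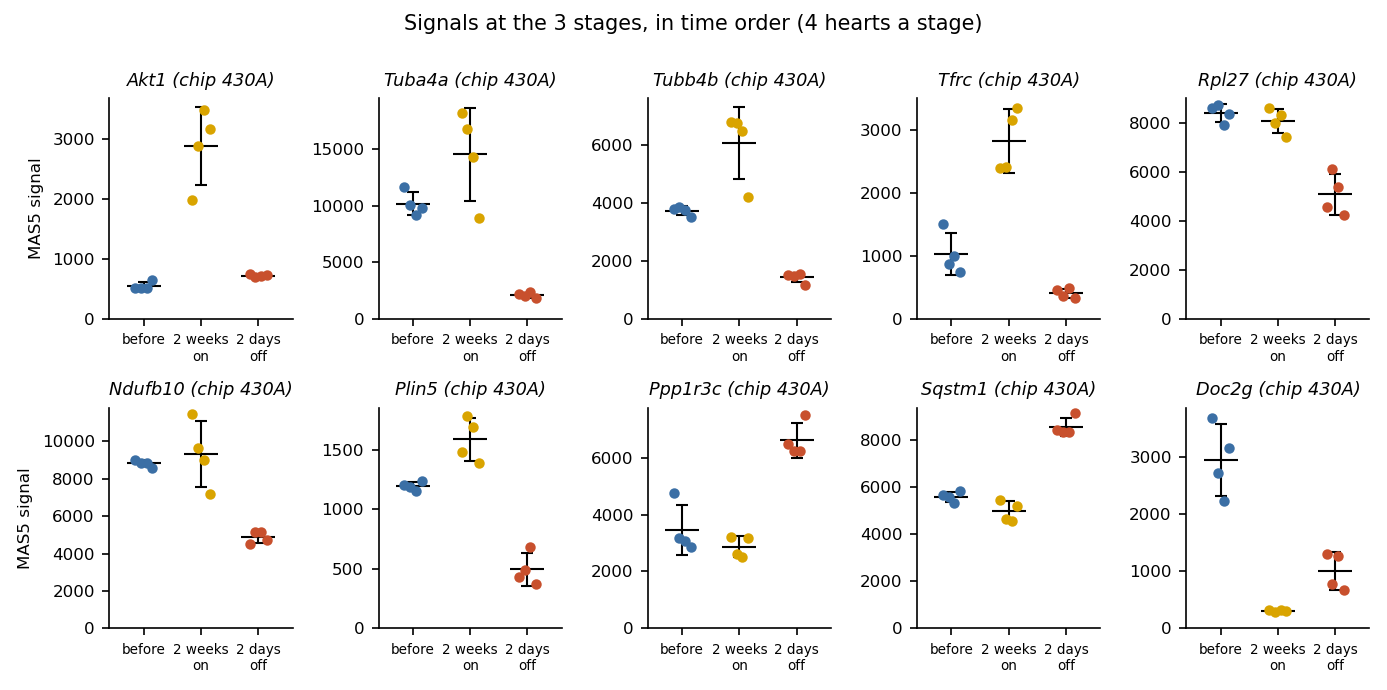
MAS5 signal of each heart at the 3 stages in time order for Akt1 and 9 other genes: before induction (blue), at the end of 2 weeks of induction (yellow) and after 2 days of repression (orange); bars give the mean and SD of 4 hearts and each axis starts at 0. Tuba4a, Tubb4b, Tfrc, Rpl27, Ndufb10 and Plin5 lie below both earlier stages after repression, Ppp1r3c and Sqstm1 above both, and Doc2g between them.

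Of 21 measured genes of insulin and Akt signalling none was called, with 8 called at the end of induction (3 higher and 5 lower). At an unadjusted p under 0.05, 3 of the 21 differed. Irs1, the insulin receptor substrate, which had been lower by 1.29, differed by -0.23 (95% interval -0.51 to 0.05), and Tsc2, a brake on mTOR, which had been lower by 0.80, by 0.12 (-0.28 to 0.52).

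Of 21 FoxO and atrophy targets, 2 rose (Gabarapl1 and the stress protein Sesn3) and 2 fell (Txnip and Klf9), where 4 had been higher and 6 lower at the end of induction. Fbxo32 (atrogin-1), the ubiquitin ligase of muscle wasting, read 2308, 1915, 1589 and 2193 in repressed hearts, 450 to 526 in induced hearts and 2657, 1467, 1702 and 1091 before induction, a difference of 0.26 that was not called. A second Fbxo32 probe set on chip 430B did pass the test, with 1889, 1368, 1471 and 1478 in repressed hearts and 988, 639, 820 and 543 before induction (log2 1.07 ± 0.21, adjusted p = 0.0123). Another probe set changed by 0.63 without a call. Gabarapl1, a ubiquitin-like protein of autophagosomes, had been lower by 0.81 under induction and rose to 0.55 above the starting level, with 2188 to 3071 in repressed hearts and 1520 to 1977 before induction. Txnip, an inhibitor of glucose uptake that is induced by glucose, fell by 1.00, and Klf9, a glucocorticoid-responsive repressor, by 0.81. Among further probe sets, Gabarapl1 changed by 0.28, Txnip by -0.51 and Klf9 by -0.65, -0.61 and -0.36, none of them called. Sesn3 (higher) and Txnip (lower) were the 2 called without hearts 3 and 4.

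Of 20 measured autophagy genes, 3 rose and none fell. Sqstm1 (p62), the receptor that brings cargo to autophagosomes, read 8431, 8350, 8348 and 9150 in repressed hearts, 4576 to 5454 in induced hearts and 5657, 5577, 5314 and 5843 before induction (log2 0.61 ± 0.14, adjusted p = 0.0155). Atg9a, the membrane protein of early autophagosomes, rose by 0.69. None of the 3 was called without hearts 3 and 4, although the change of Sqstm1 was as large (0.60).

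Heart muscle stress and structural genes gave few calls. Of 15 genes of the fetal and hypertrophy programme 1 rose (Cnn1, calponin of smooth muscle, by 1.14), and none was called without the 2 hearts, where the median was 0.06 against 0.33 with them. The natriuretic peptide Nppb read 5914, 3896, 6474 and 5571 in repressed hearts and 7635, 3902, 1469 and 2870 before induction, and the groups overlapped (log2 0.67, adjusted p = 0.332). Nppa (1.08), Myh7 (-0.15) and Vegfa (0.36) were not called either, although Vegfa, the main angiogenic factor, was called without the 2 hearts (0.66, adjusted p = 0.0274). Without them Nppb differed by -0.02 and Myh7 by -0.87, neither called. Nppa is an atrial gene, and the hearts differed widely in it. The atrial light chain Myl7 read 8761, 4869, 3272 and 32.1 in repressed hearts and 6.10, 92.3, 20.8 and 13763 before induction, so 3 repressed hearts and heart 4 before induction had strong atrial signal. The 7 atrial markers, Nppa among them, summed to 5612 to 44035 in repressed hearts and 3099 to 68441 before induction. The part of atrial tissue in the Nppa values was not tested. Heart 4 before induction is also 1 of the 2 hearts left out for Xist signal, so the fit without them differs in atrial signal too. The median change of the 7 markers was 1.08 with all hearts and 1.57 without the 2. Both medians are the values of Nppa itself, so they give no separate reading of atrial signal. Among 24 sarcomere genes Tcap, which caps titin at the Z-disc, fell by 0.77, and Nebl, a Z-disc protein, rose by 1.51 on 1 of its probe sets, with changes of 0.52 and 0.77 on the others that were not called. Tcap was called without the 2 hearts and Nebl was not.

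Growth-related genes that remained up were Cdk1, Top2a and Ccnb2, all needed for cell division. They were the 3 called of 27 proliferation genes (1 without the 2 hearts, Cdk1), against 11 called higher at the end of induction, and Top2a read 218 to 389 in repressed hearts and 74.1 to 165 before induction (log2 1.03 ± 0.21, adjusted p = 0.00843; 0.72 and not called without the 2 hearts). Igfbp5 and Igfbp7, binding proteins of insulin-like growth factors, and Ace, the angiotensin-converting enzyme, rose by 1.21, 0.59 and 1.01. Of 18 genes of that group none fell, and Ace was not called without the 2 hearts (0.79, adjusted p = 0.0701). Among further probe sets, Igfbp5 rose by 1.49, and Igfbp7 and Ace changed by -0.05 and 0.60 without a call.

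Other cell types gave few calls. Of 22 endothelial markers 1 fell (Flt1, a VEGF receptor, by 0.49, not called without the 2 hearts), and their summed signal was 31137 to 39607 in repressed hearts and 36389 to 40766 before induction. None of 18 macrophage and leukocyte markers was called (5 at an unadjusted p under 0.05), with a median of 0.28 and sums of 10562 to 15142 in repressed hearts and 8597 to 11752 before induction. H2-Eb1, an MHC class II chain, Tapbp, which loads MHC class I, and Ifi27, an interferon target, rose by 0.86, 0.48 and 0.95, the 3 called of 18 genes of that group (2 without the 2 hearts, Ifi27 having lost its call). Of 12 smooth muscle markers 1 rose (Cnn1), which was not called without the 2 hearts. Of 12 ventricular cardiomyocyte markers Ryr2 rose and none fell, but 10 had a change below 0. Their median was -0.31 and their sums were 214860 to 281110 in repressed hearts and 272760 to 357190 before induction. After quantile normalization the median was 0.00, and the part of this shift in the matrix rise and the respiratory chain falls was not tested.

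Several of the largest new changes were seen by 1 probe set of a gene and not by its others. The largest fall on chip 430A was that of Psmd6, a subunit of the proteasome lid, which read 64.7, 51.3, 59.8 and 91.9 in repressed hearts, 981 to 1694 in induced hearts and 1085, 728, 858 and 632 before induction (log2 -2.89 ± 0.20, adjusted p = 1.25e-07). A brighter Psmd6 probe set read 2172 to 2742 in repressed hearts and 2189 to 2386 before induction (log2 0.11), and of the other measured proteasome genes none fell. The same held for Ptprg, a receptor tyrosine phosphatase (-2.48, with 0.10, 0.17 and -0.36 on others), Pih1d1, a chaperone cofactor (-1.99, with -0.14, 0.43 and -0.22), Tspan9, a tetraspanin (2.21, with -0.05), and Gosr2, a Golgi SNARE (1.56, with 0.06). Of these, Pih1d1, Tspan9 and Gosr2 were not called without the 2 hearts. Probe sets of a gene can read different transcript ends or isoforms, and which is the case here was not tested. By contrast the 2 Dbp probe sets and the 2 bright Tuba4a probe sets moved together, as did all 4 called Gsn probe sets, Gsn being an actin-severing protein (-0.72, -0.61, -0.80 and -0.72).

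**Figure D5:**
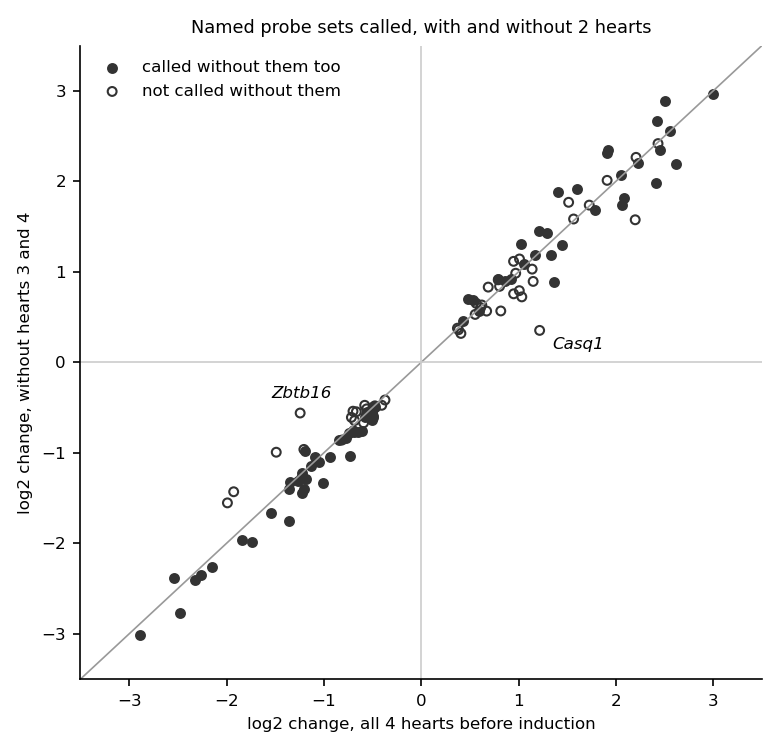
Log2 change between repressed hearts and hearts before induction for the 118 named probe sets that were called, with all 4 hearts before induction (x axis) and without hearts 3 and 4 (y axis); filled points were called in both fits and the line marks equality. All 118 points keep their sign, which could not change where the 2 groups did not overlap, and Casq1 and Zbtb16 lie furthest toward 0.

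Leaving out the 2 hearts with Xist signal kept the direction of all 118 named probe sets that were called, and 68 kept their call with 2 hearts left before induction. The probe sets were named from calls that used these hearts. Where the 2 groups of hearts did not overlap, leaving hearts out could not change the direction. The median shift was 0.106 log2 units and the largest 0.864 (Casq1). Zbtb16, a glucocorticoid-induced transcription factor, lost most after Casq1, where its 430A probe set fell by 1.24 with all hearts and changed by -0.56 without them, and its 430B probe set fell by 1.49 and changed by -0.99, neither called without them. Postn, Myl1, Ryr1, Tuba4a, Tubb4b, Tfrc, Plin5, Dbp and Ciart kept their calls.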

How the data were processed

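Per the labels' protocols, total RNA of mouse hearts was labelled with biotin, hybridised to Affymetrix 430A and 430B chips and summarised with MAS5. The deposited values are linear signal intensity per probe set, scaled by the authors to a common 2% trimmed mean (500.193 on 430A and 122.509 on 430B). Gene names came from the platform annotation: 1 symbol was given for 20380 and 14661 probe sets, several for 691 and 245, none for 1555 and 7605, and 64 on each chip are controls. Probe sets with a mean over the 18 arrays of at least 20% of the trimmed mean were kept (15565 and 17519). Log2(signal + 10% of the trimmed mean) was modelled in R 4.3.3 by limma 3.58.1, with 5 group means over all 18 arrays of a chip and an intensity trend, and p-values were adjusted within each chip by Benjamini-Hochberg. A gene was read by its brightest probe set, on 430A where possible. Figures used matplotlib 3.10.9. The fit was also run on simulated data in which the noise of each probe set was independent. Those data held no differences of array, sex or RNA quality between the groups, so they do not bear on such effects. The members and lists were chosen with earlier results of these data known. Named genes were the largest non-overlapping rises and falls (10 each on 430A, 4 on 430B), the largest remaining and new changes (6 and 3 each way), of each list at most the 5 called members with the lowest adjusted p, the genes Nppa, Nppb, Myh7, Vegfa and Fbxo32, and Akt1; other members of counts of 5 or fewer were named after their values were seen. Replicate numbers did not pair the hearts: the correlations of deviations between same-numbered hearts were -0.114 to 0.0401 on 430A and -0.00349 to 0.109 on 430B.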

Additional observations from a re-analysis of the deposited data

Results flagged for a closer look

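Of 256 groups of 4 hearts examined among the named genes and array checks, 20 held a heart whose gap to the nearest other heart exceeded Dixon's 95% critical value, as a share of the group's range; chance gives about 1 in 20. Among repressed hearts these were heart 3 for Fasn (3627.5), Ankrd39 (109.409) and Nxpe4 (50.2457), heart 4 for Tubb4b (1178.4) and Sqstm1 (9149.6), heart 2 for Gnb3 (180.3), and the 18S 3′ signal of heart 4 (464.2). Before induction, heart 1 stood apart for Thbs4 (188.9), Col5a1 (168.2), Cthrc1 (53.8714), Ppp1r3c (4752.2), Acot2 (139.1) and Nxpe4 (41.8918). Heart 2 stood apart before induction for Hip1r (688.1) and Sh3gl3 (167.6). Heart 4 stood apart before induction for Akt1 (652.2), Dbp (2445.7), Slc8a1 (154.4), Mfap5 (1767) and Nppa (26347.4).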

How the results depend on the processing

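With 827 probe sets called on chip 430A and 242 on 430B, the count on 430A was 491 with median scaling, 1365 when only the 2 groups entered the fit and 408 without the 2 hearts with Xist signal, and on 430B it was 93 without the intensity trend and 101 without those hearts. Leaving out 1 heart at a time gave 417 to 855 on 430A and 78 to 283 on 430B. The fit with the replicate number as a block called 711 and 237. Median scaling split the calls of both chips into 545 higher and 290 lower (65.3% higher, against 54.7%), those of 430B into 307 and 37 (89.2%, against 74.8%), and moved the median change on 430B to 0.06, against -0.06. For induced hearts against those before induction, 430B gave 184 calls without the trend, leaving out the 2 hearts gave 390 on 430A and 134 on 430B (100 higher and 34 lower), 1 heart left out gave 817 to 1468 and 172 to 324, and median scaling gave 729 higher and 340 lower on 430A. For repressed against induced hearts, 430B gave 253 calls with the Actb ratio as covariate, 272 without the trend, 748 with 2 groups only and 199 to 366 with 1 heart left out (2072 to 2742 on 430A), and median scaling gave 865 higher and 1729 lower on 430A and 361 and 91 on 430B. The Actb ratio difference was -0.347 to -0.216 with 1 heart left out (exact permutation p of 0.0571 each, the smallest that 4 against 3 allows), and that of the Gapdh ratio was -0.0623 (exact p = 0.0857). For 18S RNA the 5′ probe set, added after the data were seen, gave a difference of -163 (exact permutation p = 0.0286), against -127 for the 3′ probe set. Of 118 called named probe sets, 55 were called under each alternative that gave them a value (the stricter filter gave one for 112 of the 126 named probe sets), 63 lost the call under at least 1, and none changed direction. Where the groups did not overlap, a fit that left hearts out could not change the direction. The cause of these shifts was not tested. With 4 hearts a group, the number of arrays limits the precision.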
